A study of Mus musculus with 4 samples.

Results

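Naive-like CD8 T cells were 299 of the 28525 barcoded cells from mouse liver, and 25161 of those barcodes passed the filter of at least 200 detected genes and at most 10% mitochondrial UMIs (unique molecular identifiers, counted RNA molecules). They were chosen by their counts. A cell had to hold at least 1 UMI of Cd3d, Cd3e and Cd3g together, at least 1 UMI of Cd8a and Cd8b1 together, at most 1 UMI of Ccl5, Gzmk, Pdcd1 and Tox together, at most 1 UMI of the cycling genes Mki67 and Top2a together, and none of Cd4, Foxp3, Cd79a, Siglech or C1qa. The cells came from the non-parenchymal fraction of the liver after bead enrichment for CD45, a surface protein of blood-derived cells, and were profiled with 10x 3' chemistry. There were 2 libraries from exercised mice (Ex 1 and Ex 2, exercise before surgery per the series title) and 2 from sedentary mice (Sed 1 and Sed 2). Every mouse was a male of 8 weeks, had received MC38 cells (a murine colorectal carcinoma line) and belonged to a surgical stress model of liver metastasis, and livers were collected 3 weeks after the tumour injection. The labels used here gave neither the strain nor the exercise regimen, and they did not say whether a library held 1 animal or several, so the spread between libraries may be technical. The members numbered 80 in Ex 1 and 81 in Ex 2, against 109 in Sed 1 and 29 in Sed 2, with 484867 and 450556 UMIs in the exercised sums and 595481 and 125330 in the sedentary ones. Sed 2 thus rested on the fewest cells and the fewest UMIs.

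A naive CD8 T cell has left the thymus and has not yet met its antigen. It recirculates between blood and lymphoid organs, led by the chemokine receptor Ccr7 and the exit receptor S1pr1, and it survives on interleukin 7 through Il7r. The transcription factors Tcf7, Lef1, Klf2, Foxo1 and Satb1 are known to hold this resting state. After activation the cell makes granzymes and chemokines such as Ccl5, and in tumours that persist it also gains the inhibitory receptor PD-1 (Pdcd1) and the factor Tox. In mice, some cells take on memory traits (Cd44, Il2rb, Ly6c2, Eomes) without known antigen and are called virtual memory cells.

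The label was checked first against genes that the selection did not use. At least 3 of the 4 naive genes Lef1, Tcf7, Ccr7 and Dapl1 were detected in 66.25% of the members of Ex 1 and 81.48% of those of Ex 2, against 65.14% in Sed 1 and 44.83% in Sed 2. In the CD8 T cells that met every other part of the rule but held 2 or more UMIs of Ccl5, Gzmk, Pdcd1 and Tox (1239 cells, called positive CD8 T cells here), the shares were 22.08% and 39.64% in the exercised libraries and 7.527% and 1.035% in the sedentary ones. Median depth was 5486 and 5214 UMIs per member in the exercised libraries and 5294 and 4181 in the sedentary ones, and 6024 and 6249 UMIs per positive cell in the exercised libraries against 4495 and 3113 in the sedentary ones. None of the 4 genes was seen in 3 and 3 members of the exercised libraries, against 4 and 5 of the sedentary ones. By these 4 genes the naive label held for most members of Ex 1, Ex 2 and Sed 1, and for a smaller share of the 29 cells of Sed 2. Nkg7, a gene of cytotoxic granules, also had a UMI in 78.75% and 86.42% of exercised and 77.98% and 82.76% of sedentary members.

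**Figure D1:**
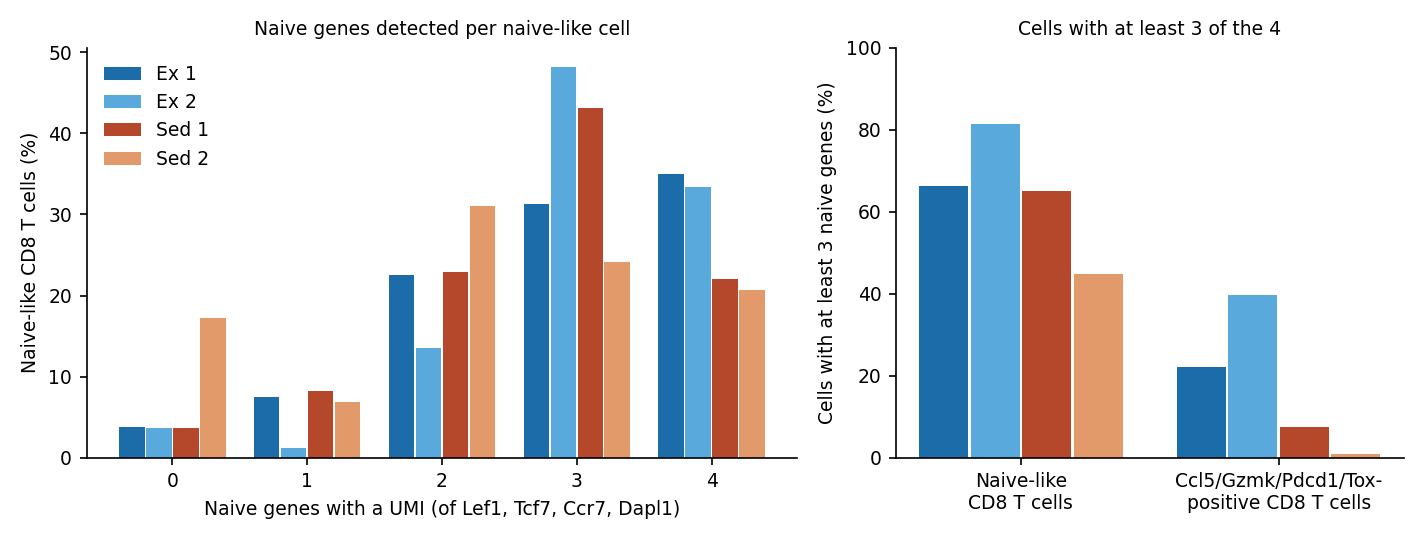
The left panel plots the percent of naive-like CD8 T cells in each library by how many of the 4 naive genes had a UMI, and the right panel the percent of cells with at least 3 of them in naive-like and in positive CD8 T cells, 1 bar per library with no error bar. Members peak at 4 genes in Ex 1, at 3 in Ex 2 and Sed 1 and at 2 in Sed 2, which has 17.24% with none, and among positive cells the exercised bars (22.08% and 39.64%) stand above the sedentary ones (7.527% and 1.035%).

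The selection asked for a UMI of either chain of the CD8 receptor, so the detection of Cd8a and Cd8b1 is a description. Cd8b1, the chain that marks conventional CD8 T cells, had a UMI in 96.25% and 95.06% of the exercised members and in 96.33% and 96.55% of the sedentary ones. Of the 299 members, 202 held UMIs of both chains, 85 of Cd8b1 alone and 12 of Cd8a alone. The defining natural killer gene Ncr1 had 0 UMIs in all 4 libraries. Klre1, another natural killer gene, was seen in 2.5% and 0% of exercised and 0.9174% and 6.897% of sedentary members. Klrb1c, a gene of natural killer and NKT cells, was seen in 1.25% and 0% of exercised and 0.9174% and 3.448% of sedentary members. Trdc, the constant region of the delta T cell receptor chain, was seen in 1.25% and 1.235% of the exercised members and in 0.9174% and 3.448% of the sedentary ones. Zbtb16, the factor of NKT and MAIT cells, had 0 UMIs in both exercised libraries and was seen in 0.9174% and 3.448% of the sedentary members. Tmem176a, also used to mark these cells, was seen in 5% and 0% of exercised and 7.339% and 3.448% of sedentary members. Of genes used to mark CD4 helper T cells, Izumo1r was seen in 16.25% and 8.642% of exercised and 11.01% and 6.897% of sedentary members. For Zbtb7b the shares were 2.5% and 1.235% in exercised and 1.835% and 10.34% in sedentary members, and Cd40lg was seen in Ex 1 alone (1.25%). The summed level of the 10-gene gamma-delta T list was 6.187 and 4.439 CPM (UMIs per 1000000 of the sum) in the exercised sums, against 10.08 in Sed 1 and 143.6 in Sed 2, where 14 UMIs of Trdc in 1 cell made up 111.7 CPM. A V segment of the beta chain was detected in 45 of the 299 members (15.05%), and in no member were 2 different ones seen. The most frequent was Trbv2, in 8 cells.

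Few cells lay at the mitochondrial and cycling limits of the rule, and more lay at the limit on Ccl5, Gzmk, Pdcd1 and Tox. The sum of Ccl5, Gzmk, Pdcd1 and Tox was 0 in 232 members and 1 in 67, while 25 CD8 T cells just outside held 2 UMIs, 35 held 3 to 5 and 1179 held 6 or more. The mean number of the 4 naive genes detected was 2.789 at a sum of 0, 2.851 at 1, 2.36 at 2, 1.914 at 3 to 5 and 0.754 at 6 or more. At the mitochondrial limit, 3 members lay between 8% and 10%, and 4 cells that met the rest of the rule lay between 10% and 12%. Of the cycling genes Mki67 and Top2a, 290 members held no UMI and 9 held 1, and 4 cells just outside held 2.

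By level, and as a description of what the selection separates, the genes that stood highest in members over positive cells included known naive genes. The largest ratios lay on the other side, with a log2 ratio of members over positive cells of -8.812 for Gzma beside 3.264 for Igfbp4. Igfbp4, which encodes a binding protein of insulin-like growth factors, had 138.2 and 153.1 CPM in exercised members and 174.6 and 167.6 CPM in sedentary members. The same gene had 15.32 and 14.01 CPM in exercised positive cells and 19.14 and 13.88 CPM in sedentary positive cells. Lef1 had 303.2 and 592.6 CPM in exercised members and 335.9 and 335.1 CPM in sedentary members. In positive cells Lef1 had 145 and 196.2 CPM in the exercised libraries and 61.54 and 27.26 CPM in the sedentary ones. Slamf6, a receptor of T cells that keep the capacity to renew, had 68.06 and 157.6 CPM in exercised members and 191.4 and 135.6 CPM in sedentary ones. In positive cells Slamf6 had 37.27 and 78.82 CPM in the exercised libraries and 28.72 and 9.419 CPM in the sedentary ones. In the other direction, the granzyme gene Gzma had 4.125 and 2.219 CPM in exercised members, against 26.87 and 0 in sedentary members, while positive cells held 212.9 and 310.9 CPM in the exercised libraries and 9020 and 7173 CPM in the sedentary ones. Ifng, the gene of interferon gamma, was listed at no more than 7.979 CPM in any library's members. Among the other genes with the largest ratios were Rgcc, Dapl1, Ramp1, Ccr7, Rflnb, Ssbp2 and Cep97 on the members' side, and Hba-a1, Ier5l, Gzmb, Osbpl3, Serpina3g, Klrk1 and Klre1 on the other. The ratio of Hba-a1, an erythroid gene, rested on Ex 1. Its positive cells had 669.4 CPM, with a UMI in 3.896% of them, against 2.627 CPM in Ex 2 and 5.47 and 4.957 CPM in the sedentary libraries.

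How large the naive-like fraction was depended on Sed 2. Members made up 20.62% of the CD8 T cells of Ex 1 (95% exact binomial interval 16.7 to 24.99) and 32.4% of those of Ex 2 (26.64 to 38.58), against 28.09% in Sed 1 (23.67 to 32.85) and 5.664% in Sed 2 (3.826 to 8.034). The intervals cover counting error only. Sed 1 lay between the exercised libraries and Sed 2 far below all 3 others, so the groups overlapped. The means were 26.51% ± 8.331 in exercised and 16.88% ± 15.86 in sedentary libraries (SD, n = 2 each), a difference of 9.631 percentage points with a two-sided p of 0.6667 in an exact permutation test, in which 2 against 2 libraries cannot go below 0.3333. Without Sed 2 the difference was -1.58. Of all kept cells the members were 1.321% and 1.91% in the exercised libraries and 1.501% and 0.3814% in the sedentary ones (p = 0.6667, exact permutation test), whereas CD8 T cells as a whole were 6.407% and 5.895% in the exercised and 5.344% and 6.734% in the sedentary libraries.

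When every cell was thinned at random to 1000 UMIs before the rule was applied, the libraries no longer overlapped. Naive-like cells were then 43.35% and 40.82% of CD8 T cells in the exercised libraries, against 22.22% and 6.081% in the sedentary ones. The difference was 27.93 percentage points, and the exact permutation p was 0.3333, the smallest this design allows. Thinning also removes UMIs of genes that had to be absent and of Ccl5, Gzmk, Pdcd1 and Tox, so cells with such UMIs can enter the set. Before thinning, CD8 T cells with 2 UMIs of these 4 genes numbered 14 and 6 in the exercised libraries and 4 and 1 in the sedentary ones. Those with 3 to 5 numbered 20 and 3 in the exercised libraries and 5 and 7 in the sedentary ones. Those with 6 or more numbered 274 and 160 in the exercised libraries and 270 and 475 in the sedentary ones. How many of each entered was not tested. By count, thinning took the naive-like cells from 80 to 101 in Ex 1, so cells from outside the main set entered there. In Ex 2 they went from 81 to 60, in Sed 1 from 109 to 64 and in Sed 2 from 29 to 27. The CD8 T cells fell from 388 to 233 in Ex 1, 250 to 147 in Ex 2, 388 to 288 in Sed 1 and 512 to 444 in Sed 2. The same rule applied to CD4 T cells in place of CD8 T cells called 43.85% and 51.35% of them naive-like in the exercised libraries and 78.43% and 42.86% in the sedentary ones, where CD4 T cells numbered 51 and 28 (p = 1, exact permutation test).

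**Figure D2:**
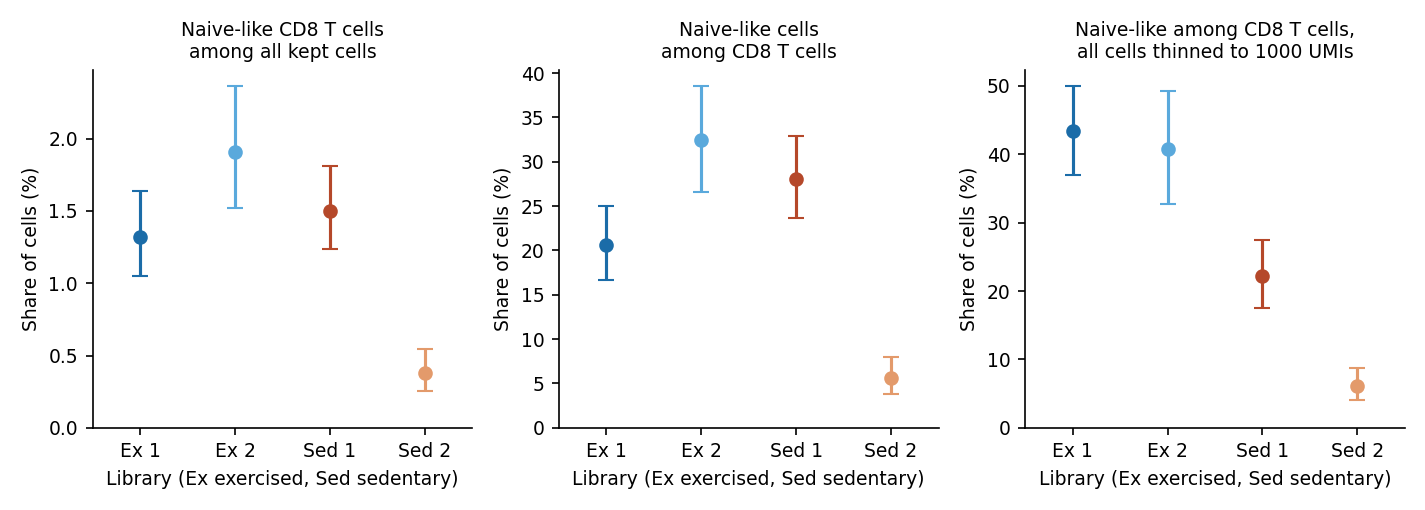
Points are the percent of cells in each library and bars the 95% exact binomial interval, for naive-like CD8 T cells among all kept cells (left), among CD8 T cells (middle) and among CD8 T cells after thinning to 1000 UMIs per cell (right). Sed 2 is lowest in each panel, at 0.3814%, 5.664% and 6.081%, and Sed 1 lies below both exercised libraries in the right panel alone.

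The members varied among themselves in memory traits. Ly6c2, a surface protein gene of memory and virtual memory cells, was detected in 53.75% and 38.27% of the exercised members and in 43.12% and 48.28% of the sedentary ones. Over all libraries, Il2rb, the beta chain of the interleukin 2 and 15 receptor, was seen in 57.04% of members with Ly6c2 and in 19.51% of members without it. Cd44, the adhesion receptor of antigen-experienced T cells, was seen in 25.19% of members with Ly6c2 and 4.878% of those without. Cells with Ly6c2 were deeper, at a median of 5850 UMIs against 4623, and the part of depth in these shares was not tested. The order of Il2rb and Cd44 was the same in each of the 4 libraries.

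The 20-gene list of memory and virtual memory genes, counted per member after thinning to 1000 UMIs, gave 3.114 and 2.543 UMIs per cell in the exercised libraries and 2.231 and 4.621 in the sedentary ones. The sedentary values lay on both sides of the exercised ones. The means were 2.829 ± 0.4036 and 3.426 ± 1.689 (SD, n = 2 each), with an exact permutation p of 1, and the difference of -0.5975 turned to 0.5975 without Sed 2. Some genes tied to memory fell below the count filter of the gene test. Eomes, a transcription factor of memory cells, had 20 and 5 UMIs in the exercised sums against 1 and 1 in the sedentary ones. Cxcr3, a chemokine receptor, had 15 and 3 UMIs against 0 and 1. The chemokine gene Xcl1 had 32 and 1 UMIs against 1 and 2, so 1 library, Ex 1, held most of its signal.

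No naive gene passed the test between exercised and sedentary members. Of the 20 genes of the naive and quiescence list, all 20 passed the count filter and 0 were called by the quasi-likelihood F test of edgeR on UMI sums per library (Benjamini-Hochberg adjusted p under 0.05), where 0.275% of the 4730 tested genes were called in all. Their median log2 change was 0.20, with 14 above 0, beside a median of 0.01 and 2390 above 0 over all 4730 genes. The list's median was 0.40 without Ex 1, -0.13 without Ex 2, 0.58 without Sed 1 and 0.04 without Sed 2. Tcf7 had 379.5 and 432.8 CPM in exercised members and 349.3 and 295.2 CPM in sedentary members, a log2 change of 0.25 (SE 0.28, adjusted p = 0.9326, edgeR). Ccr7 had 235.1 and 310.7 CPM in exercised members and 300.6 and 167.6 CPM in sedentary members, a log2 change of 0.06. Il7r had 297 and 654.7 CPM in exercised members and 634.8 and 582.5 CPM in sedentary members, and Klf2 had 499.1 and 1050 CPM in exercised members and 1115 and 646.3 CPM in sedentary ones. For both, Ex 1 was the lowest of the 4 libraries.

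For 5 naive genes both exercised libraries lay above both sedentary ones, after the library scaling of edgeR, and none of the 5 passed the adjusted threshold. That order was seen in 18.1% of all tested genes. Satb1, a chromatin organiser of T cells, had 416.6 and 523.8 CPM in exercised members and 267 and 247.3 CPM in sedentary ones (log2 change 0.80, SE 0.28, adjusted p = 0.7022, edgeR). Foxo1, the factor that drives Il7r and Klf2, had 84.56 and 122.1 CPM in exercised members and 48.7 and 55.85 CPM in sedentary ones (log2 change 0.93, SE 0.37). Dapl1 had 375.4 and 344 CPM against 235.1 and 247.3 CPM in sedentary members. The other 2 were Actn1, an actin cross-linker, and Bach2, a repressor of effector genes, with log2 changes of 1.04 and 0.77. Igfbp4 alone had the reverse order, which 16.6% of all tested genes showed, with a log2 change of -0.31. These CPM come from UMIs summed over cells. Satb1 had a UMI in 88.75% and 88.89% of exercised members and in 75.23% and 62.07% of sedentary ones. For Dapl1 the shares were 61.25% and 51.85% in exercised and 44.95% and 58.62% in sedentary members. Igfbp4 was seen in 36.25% and 44.44% of exercised and 62.39% and 37.93% of sedentary members. These shares also depend on depth, and whether cells with the transcript or transcripts per cell differed was not tested.

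Across all genes, 13 of 4730 passed the test between exercised and sedentary members, 2 higher (0.0423%) and 11 lower (0.233%). In 34.8% of the tested genes both exercised libraries lay on the same side of both sedentary ones. At an unadjusted p under 0.05 there were 297 genes, and DESeq2 called 11, of which 10 were shared.

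The 2 genes that rose differed in how many cells carried them. Lars2, the mitochondrial leucyl-tRNA synthetase (chr9:123366927-123462666, GRCm38), had 1015 and 1216 CPM in exercised members, against 398 and 406.9 CPM in sedentary members, a log2 change of 1.42 (SE 0.28, adjusted p = 0.0241, edgeR). It was detected in 273 of the 299 members, and 1.13% of its UMIs lay in the top cell. The predicted gene Gm42418, which overlaps ribosomal RNA sequence, moved with it, at 54990 and 61030 CPM in exercised members and 24400 and 27070 CPM in sedentary ones (log2 change 1.14, adjusted p = 0.1909, edgeR), and its part in the Lars2 result was not tested. Lars2 was no longer called without Ex 1 (adjusted p = 0.07004, edgeR), without Ex 2 (0.2528) or in members with none of Ccl5, Gzmk, Pdcd1 and Tox (0.6021), with log2 changes from 1.31 to 1.54. Ifitm1, an interferon-induced membrane protein gene (chr7:140967221-140969825), had 216.6 and 208.6 CPM in exercised members, against 26.87 and 7.979 CPM in sedentary members (log2 change 3.11, SE 0.41, adjusted p = 0.0007715, edgeR). Its UMIs came from 4 cells of Ex 1 and 2 of Ex 2, against 6 of Sed 1 and 1 of Sed 2, with 37.04% of them in 1 cell of Ex 2. When members with 3 or more UMIs of 8 macrophage, neutrophil and B cell genes were left out, Ifitm1 fell below the count filter and was not tested.

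Of the 11 genes that fell, most are known from neutrophils and other myeloid cells. They were Lcn2 and Mmp8, which encode neutrophil granule proteins, Chil3, Wfdc21, Hp, Ifitm6, Anxa1 and the endotoxin co-receptor gene Cd14, with log2 changes from -6.34 for Lcn2 to -2.63 for Hp. Lcn2 had 6.187 and 4.439 CPM in exercised members, against 604.6 and 199.5 CPM in sedentary members (SE 0.73, adjusted p = 0.005003, edgeR). It was seen in 3 and 2 exercised cells and in 12 and 3 sedentary ones, and 61.79% of its UMIs lay in 1 cell of Sed 1. Chil3 had 53.62 and 102.1 CPM in exercised members, against 423.2 and 1093 CPM in sedentary members, and 26.68% of its UMIs lay in 1 cell of Sed 1. When cells with the highest doublet scores were left out, its log2 change was 0.92 and it was not called.

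Neutrophil RNA in the members was higher in both sedentary libraries, though 0 of the 5 tested genes of the neutrophil list were called. The 9 genes of the neutrophil list summed to 204.2 and 918.9 CPM in exercised members, against 11970 and 3702 CPM in sedentary members, and S100a8 and S100a9, which define neutrophils, led them. In the same test the 5 tested B cell genes were all above 0, with a median log2 change of 1.596, and of 5 macrophage genes 2 were above 0, with 0 called in either list. The B cell median was 0.3424 without Ex 1, 2.151 without Ex 2, 0.3712 without Sed 1 and 3.415 without Sed 2. Of 6659 UMIs of S100a8 and S100a9 in the members of Sed 1, 94.79% lay in 5 cells and 3384 in a single cell. Cells with at least 1% of their UMIs in S100a8 and S100a9 were 10.44% and 8.889% of the kept cells in the exercised libraries and 40.45% and 21.73% in the sedentary ones. A UMI of either gene was seen in 28.75% and 14.81% of exercised members and 54.13% and 27.59% of sedentary members, and in 24.03% and 17.16% of exercised and 58.78% and 38.1% of sedentary positive CD8 T cells. When members with 3 or more UMIs of 8 macrophage, neutrophil and B cell genes were left out (8 and 6 exercised cells, 18 and 5 sedentary cells), 4 genes were called, 3 of them among the 13. Without doublets 5 were called, 4 of them among the 13. The shared genes were Lars2, Cdk6 and Neb in the first of these runs, and the same genes with Ifitm1 in the second. None of the myeloid genes named above was called in either run. Lcn2 and Wfdc21 fell below the count filter in both runs and were not tested, and some of the others may have fallen below it too.

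A further 3 of the genes that fell were spread over many cells. Ifi27l2a, an interferon-induced gene (chr12:103442167-103443680), had 484.7 and 293 CPM in exercised members, against 1046 and 1181 CPM in sedentary members. It fell by 1.54 on the log2 scale (SE 0.30, adjusted p = 0.0241, edgeR) and was detected in 43 and 31 exercised cells and in 105 and 21 sedentary cells, that is, in 105 of the 109 members of Sed 1. Cdk6, a kinase that drives entry into the cell cycle (chr5:3341485-3531008), had 39.19 and 33.29 CPM in exercised members and 157.9 and 95.75 CPM in sedentary members (log2 change -1.98, SE 0.38, adjusted p = 0.0241, edgeR), with UMIs in 13 and 15 exercised cells and in 52 and 5 sedentary cells. Neb, which encodes the giant muscle protein nebulin (chr2:52136647-52378474), had 2 and 1 UMIs in the exercised sums, against 51 and 4 in the sedentary sums, the 51 in 34 cells. In the sum of all kept cells Ifi27l2a had 1198 and 809.9 CPM in the exercised libraries and 3283 and 2144 CPM in the sedentary ones. Its call was lost without Ex 2 (adjusted p = 0.7578, edgeR), without doublets (0.05818), without members that held RNA of other cells (0.1228) and in members with none of Ccl5, Gzmk, Pdcd1 and Tox (0.389), with log2 changes from -1.70 to -1.21. That of Cdk6 was lost without Sed 1 (adjusted p = 0.608, edgeR), under the stricter cell filter (0.06859), on thinned sums (0.5906), in members with none of the 4 genes (0.9538) and by DESeq2 (0.4546). Neb was not called by DESeq2 (adjusted p = 0.07803) or in members with none of the 4 genes (0.1446, edgeR). Among the myeloid genes, Mmp8 was not called without Ex 1, without Sed 1 or by DESeq2 (adjusted p = 0.3286), and Ifitm6 was not called without Sed 1, on thinned sums or in members with none of the 4 genes.

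**Figure D3:**
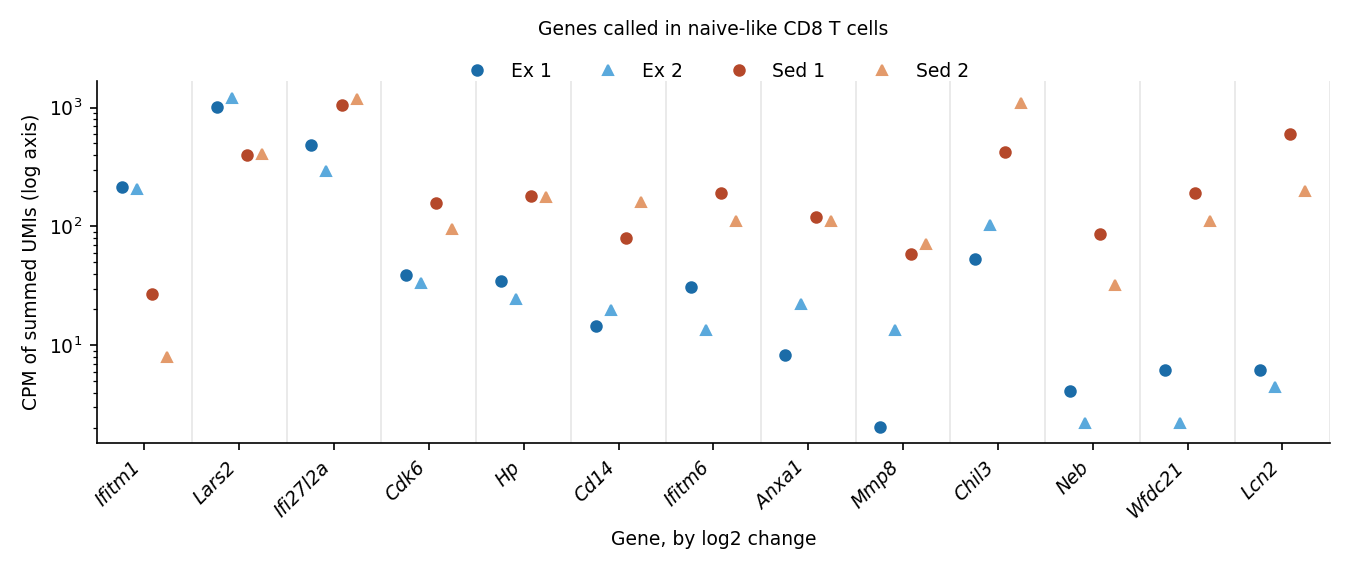
Each point is the level of a called gene in the summed naive-like CD8 T cells of a library, in CPM on a log axis, with genes in order of log2 change. The exercised libraries lie above the sedentary ones for Ifitm1 and Lars2 and below them for the other 11 genes.

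The genes of smallest p among those higher in exercised members that did not pass the adjusted threshold were Chordc1, Fam46c, Iigp1, H2-DMb1, Sesn3 and St13, with adjusted p between 0.2378 and 0.3816 (edgeR). Chordc1 and St13 encode co-chaperones, and Sesn3 a sestrin induced by FOXO factors. Chordc1 had 80.43 and 142 CPM in exercised members and 28.55 and 47.87 CPM in sedentary ones. Sesn3 had 90.75 and 139.8 CPM in exercised members and 38.62 and 47.87 CPM in sedentary ones. The groups did not overlap for either gene. In the alternative runs that tested them, Chordc1 was called in 3 and not in 9, H2-DMb1 in 3 and not in 8, and St13 in 1 and not in 12. Runs with 1 library left out were among those with a call for each of them. H2-DMb1, a gene of the MHC class II pathway, was seen in 9 cells, with 44.44% of its UMIs in 1 cell of Ex 2.

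No gene of the T cell receptor signalling list was called, yet 24 of its 27 tested genes had a log2 change above 0, with a median of 0.32 (0.15 without Ex 2 and 0.11 without Sed 1). Both exercised libraries lay above both sedentary ones for 7 of the 27 and below for 0, beside 18.1% and 16.6% of all genes. Cd6, a coreceptor that tunes the T cell receptor signal, had 101.1 and 73.24 CPM in exercised members and 33.59 and 39.89 CPM in sedentary members (log2 change 1.22, SE 0.41, adjusted p = 0.6581, edgeR). Cd5, a related receptor whose level tracks self-reactivity, had 76.31 and 84.34 CPM in exercised members and 23.51 and 63.83 CPM in sedentary members. Themis, a signalling adaptor needed in thymic selection, had 109.3 and 155.4 CPM in exercised members and 65.49 and 79.79 CPM in sedentary ones. The constant chains Trac, Trbc1 and Trbc2 did not pass the test, with log2 changes of 0.08, -0.10 and 0.01 and SEs from 0.27 to 0.29.

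The cytokine receptor and signalling list had 0 of 24 tested genes called, a median log2 change of 0.43 and 18 genes above 0. Both exercised libraries lay above both sedentary ones for 11 of the 24 and below for 0, beside 18.1% and 16.6% of all genes. Il6st, the shared signal chain of interleukin 6 family receptors, had 101.1 and 77.68 CPM in exercised members and 25.19 and 71.81 CPM in sedentary members (log2 change 1.20, SE 0.44). Il2rb had 150.6 and 113.2 CPM in exercised members and 73.89 and 103.7 CPM in sedentary members. The kinase gene Jak1 had 317.6 and 452.8 CPM in exercised members and 270.4 and 263.3 CPM in sedentary members. In none of these did the adjusted p come under the threshold.

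The interferon-stimulated genes had a median near 0. Of 49 tested genes, Ifi27l2a was called lower and none was called higher, the median log2 change was -0.06 (-0.41 without Ex 1, 0.29 without Ex 2 and 0.16 without Sed 1), and both exercised libraries lay above both sedentary ones for 12 genes and below for 8, beside 18.1% and 16.6% of all genes. Irf7, the master factor of the type I interferon response, had 90.75 and 53.27 CPM in exercised members and 147.8 and 167.6 CPM in sedentary members (log2 change -1.16, SE 0.34, adjusted p = 0.3816, edgeR). Iigp1, a GTPase induced by interferon gamma, had 24 and 17 UMIs in the exercised sums and 5 and 1 in the sedentary sums.

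Of the 10 tested genes on the list of glucocorticoid-induced genes, 9 had a log2 change below 0 and 0 were called, with a median of -0.46 (-0.82 without Ex 2 and -0.71 without Sed 2). Tsc22d3, which encodes the glucocorticoid-induced leucine zipper, had 146.4 and 379.5 CPM in exercised members and 428.2 and 518.6 CPM in sedentary members (log2 change -0.88, SE 0.35, adjusted p = 0.7486, edgeR). Fkbp5, a chaperone of the glucocorticoid receptor, had a log2 change of -1.88 (SE 0.54). Dusp1, a phosphatase of MAP kinases, had 107.2 and 117.6 CPM in exercised members and 147.8 and 247.3 CPM in sedentary members.

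Lists tied to the state of the cell had 0 called genes and medians from -0.25 to 0.52. The 81 ribosomal protein genes had a median of -0.19 with 16 above 0, the 72 nuclear genes of oxidative phosphorylation one of -0.13 with 25 above 0, and the 26 early response and heat shock genes one of -0.15 with 11 above 0. The 13 mitochondrially encoded genes had a median of 0.33 (0.13 without Sed 2) with 12 above 0, and 10 had both exercised libraries above both sedentary ones, beside 18.1% of all genes. Median mitochondrial shares per member were 4.653% and 4.482% in the exercised libraries and 3.92% and 3.955% in the sedentary ones. The 17 MHC class I and immunoproteasome genes had a median of 0.04, the 13 glycolysis genes one of 0.04, the 18 homing and adhesion genes one of 0.03, the 8 cytotoxic genes one of 0.52 and the 10 activation and exhaustion genes one of -0.25. The ribosomal median was 0.08 without Sed 1 and -0.41 without Sed 2. The memory list, at 0.17 with 15 genes tested, was at -0.54 without Sed 1 and at 0.67 without Sed 2. The cytotoxic median was 0.04 without Ex 1, 0.09 without Sed 1 and 0.53 without Ex 2, and that of glycolysis ran from -0.40 without Ex 1 to 0.41 without Ex 2.

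**Figure D4:**
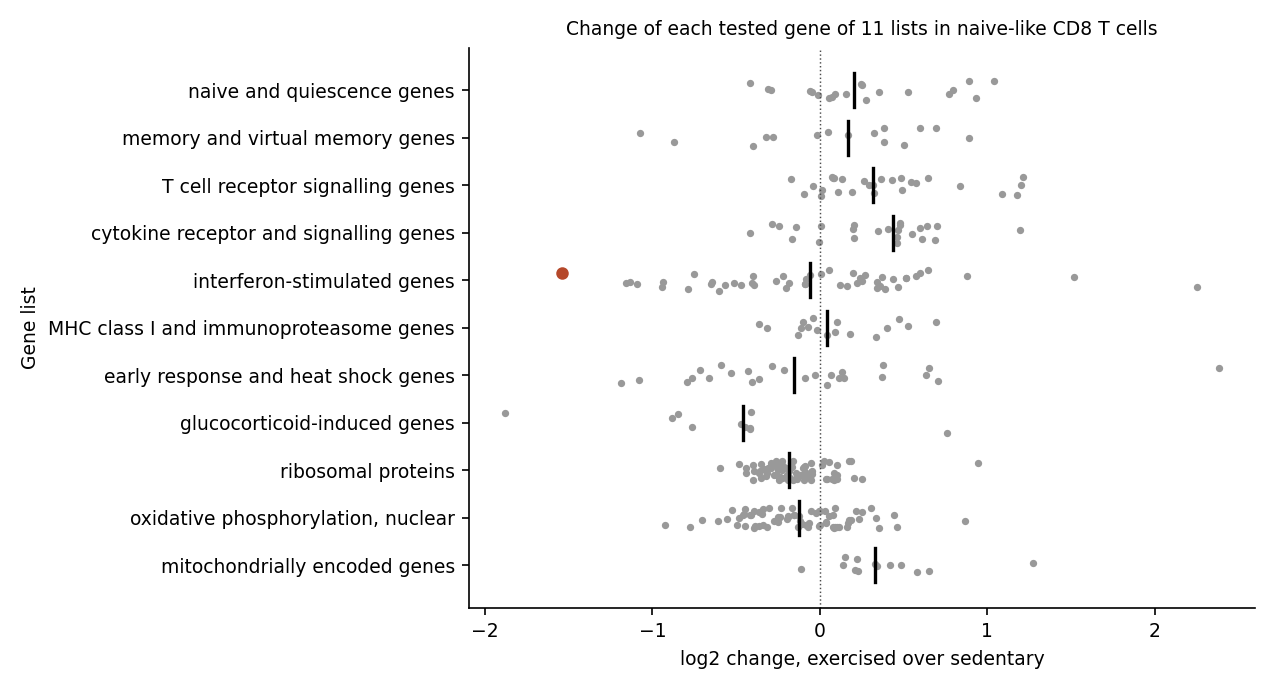
Each point is the log2 change, exercised over sedentary, of 1 tested gene in naive-like CD8 T cells, in 11 gene lists with the median of each list as a black bar, and the larger coloured point is the gene of these lists called by edgeR, Ifi27l2a at -1.54. The medians run from -0.46 for glucocorticoid-induced genes to 0.43 for cytokine receptor and signalling genes.

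Whether naive-like cells differed between the groups less or more than the other CD8 T cells was tested as an interaction of cell set and group in edgeR, with the library as a block. The fit used UMI sums of the members and of the positive CD8 T cells of each library, and a negative value means that the log2 change, exercised over sedentary, was lower in the members. Of 7606 genes, 169 were called (2.22%), 47 with a positive value (0.618%) and 122 with a negative value (1.6%), and 943 had an unadjusted p under 0.05. Within the positive cells alone, 626 of 8661 genes were called between the groups (7.23%). The selection on Ccl5, Gzmk, Pdcd1 and Tox set which cells entered each sum, so genes that go along with these 4 were not independent of it.

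Of the 20 naive and quiescence genes, 11 were called with a negative value and 0 with a positive one, with a median of -1.43, beside 0.02 over all genes tested. Tcf7 had 243 and 353 CPM in exercised positive cells and 54.7 and 17.85 CPM in sedentary positive cells, while its level in members ran from 295.2 to 432.8 CPM over the 4 libraries. The difference of its log2 changes was -2.79 (SE 0.30, adjusted p = 7.736e-05, edgeR). Il7r had 279.8 and 630.6 CPM in exercised positive cells and 153.8 and 68.91 CPM in sedentary positive cells, and its difference was -2.51 (SE 0.24, adjusted p = 3.722e-05, edgeR). Satb1 was at -1.81, S1pr1 at -1.68, Lef1 at -1.66, Ccr7 at -1.63 and Klf2 at -1.55, all called. For all 7 of these genes both exercised libraries lay above both sedentary ones in the positive cells. Of the 8 sums (both cell sets in 4 libraries), the sedentary positive cells gave the lowest pair of values for each gene. Ccr7 was not called without Ex 2, at -1.01.

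**Figure D5:**
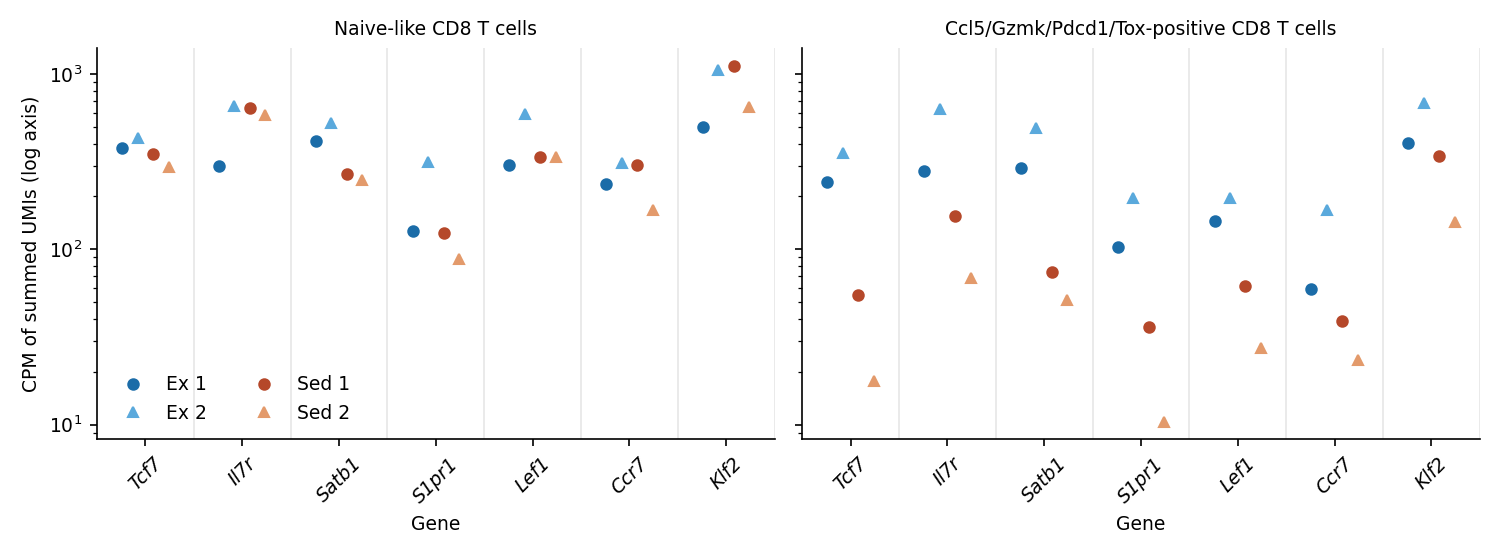
Points are the CPM on a log axis of 7 naive genes in the UMI sum of each library, in naive-like CD8 T cells (left) and in positive CD8 T cells (right). In the right panel both exercised libraries lie above both sedentary ones for each gene, as with Tcf7 at 243 and 353 against 54.7 and 17.85 CPM, and in the left panel the groups overlap for Il7r, Lef1, Ccr7 and Klf2.

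Beside the naive genes, 52 of 81 ribosomal protein genes and 9 of 13 mitochondrially encoded genes were called with a negative value, with medians of -0.50 and -0.70. The ribosomal count was 28 without Ex 2, 24 without Sed 1 and 28 without Sed 2, and the mitochondrial count 5 without Ex 2 and 3 without Sed 1, with both medians below 0 in each. Positive cells had median mitochondrial shares of 4.498% and 4.834% in the exercised libraries and 2.728% and 2.62% in the sedentary ones, a wider gap than in the members, and the part of RNA content in these counts was not tested. With a positive value, 4 of 16 cytotoxic genes and 3 of 19 memory and virtual memory genes were called, beside 0.618% of all genes. The medians of these 2 lists were 1.07 and 0.75. They were 0.09 and 0.16 without Sed 1, and 2.05 and 1.11 without Sed 2. Nkg7, a protein of cytotoxic granules, had 620.8 and 523.8 CPM in exercised members and 441.7 and 622.4 CPM in sedentary members. In positive cells Nkg7 had 1254 and 989.7 CPM in the exercised libraries and 2435 and 2862 CPM in the sedentary ones, and the difference was 1.28 (SE 0.15, adjusted p = 0.00013, edgeR). Lars2, Cdk6 and Neb, called in the members, were called in the same direction in the positive cells, at log2 changes of 1.34, -1.77 and -3.03. Their interaction did not pass the test. Among the myeloid genes, Lcn2, Wfdc21 and Chil3 were also called lower in the positive cells, at -5.26, -4.97 and -4.55. For Chil3 the interaction passed, at 1.34 (SE 0.28, adjusted p = 0.01064, edgeR). Ifitm1 was not called in the positive cells, at -0.26. Ifi27l2a had 519.8 and 269.8 CPM in exercised positive cells, against 2677 and 2149 CPM in sedentary ones, and its fall was smaller in the members by 1.03 on the log2 scale (SE 0.16, adjusted p = 0.001409, edgeR).

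The start regions of Tcf7 and Il7r, the pair with the largest differences among these 7 naive genes, are shown because TCF/LEF and RUNX factors are known regulators of CD8 T cell genes. Each is the RefSeq window of 250 bases before and 50 after the first annotated start, on the gene's own strand (GRCm38.p6, minus strand in both), with matches of the TCF/LEF core CTTTGA and the RUNX core TGTGGT, on either strand, in capitals. The windows lie at chr11:52282965-52283264 for Tcf7 and chr15:9529827-9530126 for Il7r.
Tcf7: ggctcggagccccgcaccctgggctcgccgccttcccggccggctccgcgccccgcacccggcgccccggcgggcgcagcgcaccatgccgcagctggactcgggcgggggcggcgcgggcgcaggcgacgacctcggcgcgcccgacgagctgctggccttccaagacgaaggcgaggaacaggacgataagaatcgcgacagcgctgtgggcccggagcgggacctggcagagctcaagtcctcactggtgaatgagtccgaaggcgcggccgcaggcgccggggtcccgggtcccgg
Il7r: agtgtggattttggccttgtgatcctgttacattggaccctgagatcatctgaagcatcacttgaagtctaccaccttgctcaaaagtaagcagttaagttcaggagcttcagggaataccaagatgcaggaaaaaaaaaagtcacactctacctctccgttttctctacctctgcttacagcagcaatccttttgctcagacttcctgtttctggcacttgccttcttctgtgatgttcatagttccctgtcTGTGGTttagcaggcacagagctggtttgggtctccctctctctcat
Il7r held 1 match of the RUNX core, and the Tcf7 window had 0 matches of either. Over all 32851 windows of the same length in the table, 5257 (16%) held the TCF/LEF core and 5506 (16.8%) the RUNX core. A match describes these letters only.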

How the data were processed

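The authors deposited 1 matrix of raw UMI counts (genes by cell barcodes). It was made with Cell Ranger 7.0.0 on builds mm10 and GRCm38 per the submitters' processing notes, while the file headers name 6.1.1. Barcodes were given for 28525 of its 51140 columns, with 135480097 UMIs over 31053 genes and 23918964 to 41027638 UMIs per library, and the other 22615 columns were not used. The barcodes were taken to name the first 28525 columns in order, which the sources used here do not state. Breaks in the counts lie 4, 16 and 2 cells from the changes of barcode suffix, so cells near those changes may belong to the neighbouring library. Libraries were assigned by barcode suffix, taken to follow the order of the authors' aggregation table, which limits every comparison. Whether that aggregation evened out read depth is not given in the sources used here. In all, 83 barcodes occurred in more than 1 library, 3 of them members, and no 2 members shared a barcode.

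The members and gene lists were chosen with earlier results of these data known. UMIs were summed per library and cell set, and CPM are those sums scaled to 1000000 UMIs. The 16 genes used to select members counted towards library sizes and were not tested. The main test was edgeR 4.0.16 under R 4.3.3: TMM scaling, filterByExpr, a robust quasi-likelihood fit and F test, and Benjamini-Hochberg adjustment over all genes of the table. DESeq2 1.42.0 was the alternative. For the SE, the log2 change was divided by the root of its F value. Whether groups overlap, where counted over genes, was judged on CPM after TMM scaling. Shares and the memory list were compared by exact two-sided permutation tests over libraries. Intervals are exact binomial (Clopper-Pearson) and cover counting error only.

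Doublets were kept in the main results. Scrublet (scanpy 1.11.5) called few by its own thresholds, 0.01651% and 0.02358% of exercised and 3.044% and 0.01315% of sedentary kept cells. An alternative therefore left out the top-scoring cells at a rate of 0.8% per 1000 cells, 293 and 144 exercised and 422 and 462 sedentary cells, of which 3 and 0 exercised and 7 and 4 sedentary cells were members. Gene positions came from GENCODE vM21 (4729 of 4730 genes matched). Python 3.11.15 was used with matplotlib 3.10.9, pandas 2.3.3, scipy 1.17.1 and numpy 2.4.6.

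Named were called genes with at least 10 CPM and no overlap, where fewer than 6 were called in a direction up to 6 genes of smallest p, up to 4 genes per list, the 10 largest ratios each way against positive cells, and a picked set. Ribosomal, mitochondrial, predicted and receptor segment genes were left out, and some other genes are not reported here. Cd5, Cd6, Themis, Il6st, Foxo1, Actn1, Bach2, Fkbp5, Gm42418 and Trbv2 were named after their values were seen. On simulated data with 4730 genes drawn and 4376 run, the test called 10 of 100 genes planted at 2-fold, 62 of 100 planted at 4-fold and 1 of 4530 left unchanged.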

Additional observations from a re-analysis of the deposited data

Results flagged for a closer look

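Of the picked set, 10 genes passed the interaction test of edgeR at an adjusted p under 0.05. For these the change between exercised and sedentary libraries differed between naive-like and positive CD8 T cells. Over all genes, 169 of 7606 (2.22%) passed. The selection on Ccl5, Gzmk, Pdcd1 and Tox set which cells entered each sum, so genes that go along with these 4 were not independent of it. Values are the log2 change in naive-like cells minus that in positive cells. They were -2.791 for Tcf7, -2.506 for Il7r, -1.808 for Satb1, -1.681 for S1pr1, -1.658 for Lef1, -1.633 for Ccr7 and -1.545 for Klf2. The signalling inhibitor Socs3, which had 96.93 and 115.4 CPM in exercised members and 124.3 and 119.7 CPM in sedentary members, was at -1.401, and was not called without Ex 2 (-1.088) or without Sed 1 (-1.218). In positive cells Socs3 had 100.6 and 172.5 CPM in the exercised libraries and 62.9 and 64.44 CPM in the sedentary ones. Above 0 were Nkg7 at 1.28 and Trbc2, the second constant region of the T cell receptor beta chain, at 0.7739. Trbc2 had 1060 and 1032 CPM in exercised members and 982.4 and 1045 CPM in sedentary members, against 1036 and 941.5 CPM in exercised and 1711 and 1796 CPM in sedentary positive cells. No group of 4 or more libraries existed in which a single library could be tested as an outlier.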

How the results depend on the processing

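Against 13 genes called in naive-like CD8 T cells, 27 were called with no filter on low counts (12548 genes tested), 5 without doublets, 3 in members with none of Ccl5, Gzmk, Pdcd1 and Tox, 4 without members that held RNA of other cells (an alternative chosen after seeing the data), 8 on sums thinned to the smallest library, and 28 to 90 with 1 library left out (28 without Ex 1, 36 without Ex 2, 40 without Sed 1 and 90 without Sed 2). DESeq2 called 11, the stricter cell filter 12, and members with a naive gene 15. The cause of these shifts was not tested. With the replicate number as a block (replicate block) 9 were called, all 9 among the 13. The other 4 were Lars2, Ifi27l2a, Cdk6 and Mmp8, at log2 changes of 1.421, -1.576, -1.871 and -3.222 (adjusted p from 0.06858 to 0.1257). The deviations of libraries with the same number correlated at 0.00819, so the numbers were not taken to pair the libraries.

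Against 169 genes in the interaction test, 260 were called without cells that held RNA of other cells, 154 of them shared, and 122 to 306 with 1 library left out, the lowest without Ex 2 and the highest without Sed 2. Between 10 and 12 of the 20 naive genes were called lower in every alternative run. With 1 library left out, the difference in the naive-like share of CD8 T cells ran from -1.58 (without Sed 2) to 20.85 percentage points. It was 27.93 with the rule applied after thinning. The difference in memory genes per cell ran from -1.793 to 0.5975 (without Sed 2). Among single genes, the log2 change turned to 0.9238 for Chil3 without doublets, to 0.07832 for Igfbp4 in members with none of the 4 genes and to -0.155 for Il2rb on thinned sums. With 1 library left out it ran from -1.07 to 0.04123 for Il7r, from -0.1779 to 0.7596 for Lef1 and from -1.309 to 0.06766 for Ifit3. Sign changes of single genes whose log2 change was smaller than its SE and that were called in neither fit are not listed, a choice made after seeing the values. With 1 library left in a group, that library is assumed to vary like the others. Depth limits the test most in Sed 2, with 125330 UMIs in 29 members.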
